A study of Oryza sativa with 3 samples.

Results

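The 9 cellulose synthase genes CESA1 to CESA9 of rice (Oryza sativa) were followed through 3 tissues by RNA sequencing. They were chosen by their locus identifiers, from 51597 genes listed with a single identifier in all 3 libraries, and the deposited description of each gene carried the same CESA number. CESA4, CESA7 and CESA9 form the secondary wall set and the other 6 genes the primary wall set, a division taken from earlier work on these genes and not from their values here. One paired-end library came from each of leaf blade, node and stem of mature plant tissue, and the node library joined nodes I and II. All plants grew at a single temperature in equal spans of light and dark, and neither genotype, treatment nor age was given in the sources used here. Each tissue has 1 library, so the differences below have neither a replicate check nor a p-value.

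Cellulose, the main load-bearing polymer of plant walls, is spun at the plasma membrane by complexes of CESA proteins that take UDP-glucose as their substrate. Growing cells lay down a thin, extensible primary wall with one set of CESA proteins. Fibres and water-conducting cells of grass stems and nodes add a thick secondary wall with another set, and rice plants that lose CESA4, CESA7 or CESA9 have brittle culms. In Arabidopsis each complex joins CESA proteins of several classes, so the relative levels of the members are of interest.

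Levels are given as FPKM, fragments scaled to transcript length and library size, which lets different genes be set side by side. Each value is followed by its deposited interval, read as covering counting error only. The number of fragments behind a value was inferred from the width of that interval, and summed over all rows it came to 39880000 in leaf blade, 39960000 in the node and 43160000 in stem. The 3 leaf mesophyll markers summed to 6699 FPKM in leaf blade, 476 in the node and 3443 in stem, and the 3 meristem markers to 0.579, 386 and 448. The 4 node transport markers summed to 0.858 FPKM in leaf blade, 390 in the node and 65.9 in stem, and no marker was listed at 0. The sum was thus highest in leaf blade for mesophyll markers and in node for transport markers. The meristem sum was high in both node and stem, and no marker was set for stem alone. Most of the meristem sum in stem came from OSH15, at 145 FPKM in node and 411 in stem. OSH1, at 131 and 19.6 FPKM, and OSH71, at 110 and 17.3, were higher in node. Their node over stem fragment ratios were 6.02 and 23.0. The mesophyll marker CAB2R went against its sum, at 1999 FPKM in leaf blade and 2741 in stem. The transport markers LSI3 and HMA2 had node over stem fragment ratios of 0.931 and 0.984, against 116 and 51.0 FPKM for LSI3 and 23.5 and 8.99 for HMA2, so their order in node and stem is uncertain. In whole tissue, fewer cells of a type and less RNA per cell cannot be told apart, and the part of these marker differences in the CESA differences was not tested.

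All 9 CESA genes were higher in the node and in stem than in leaf blade. Node and stem were close to each other in CESA1, CESA3, CESA8 and CESA4. They parted in CESA5 and CESA6, which were higher in node. Summed over the 9 genes, the CESA level was 15.2 FPKM in leaf blade, 414 in the node and 355 in stem, from 2820, 73225 and 61269 implied fragments. The stem sum includes the uncertain CESA9 value described below, and with one transcript length per gene it would be 323 FPKM. CESA1, CESA3 and CESA8 together held 77.5%, 68.5% and 72.9% of the summed level. Coordinates below are those of the deposited loci, of a genome build not named in the sources used here, and each locus was the same in all 3 libraries.

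**Figure D1:**
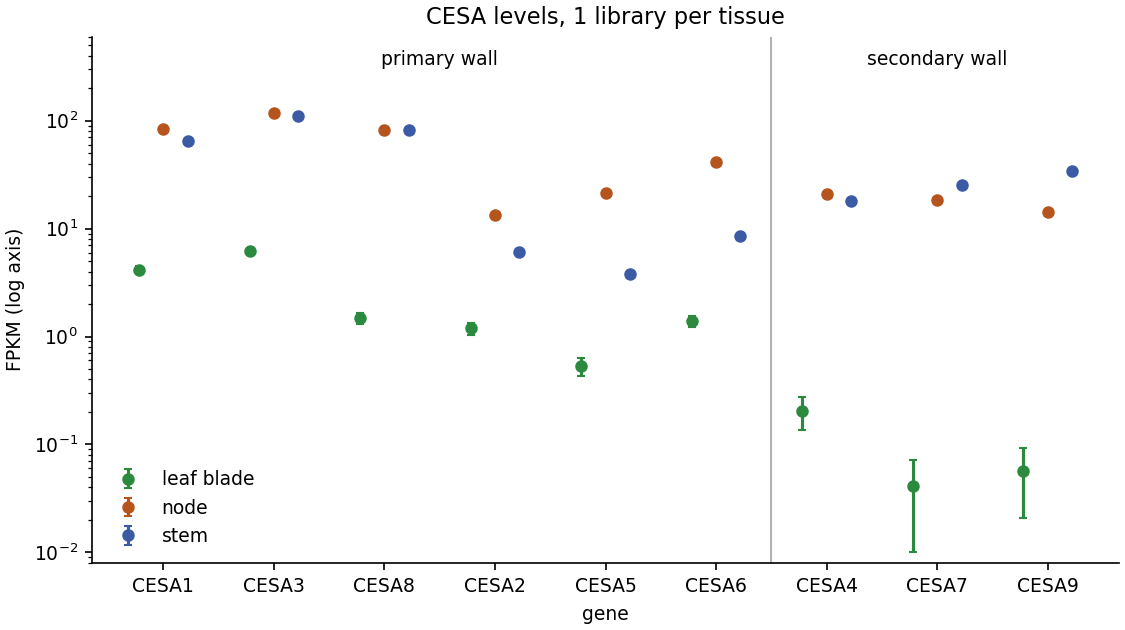
Level of each CESA gene in FPKM (vertical log axis) in leaf blade, node and stem, 1 library each, with bars for the deposited intervals; genes are ordered by wall set. Leaf blade is the lowest tissue for every gene, from 0.0411 FPKM for CESA7 to 6.16 for CESA3.

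CESA3, CESA1 and CESA8, which synthesise primary wall cellulose, were the most abundant members in each tissue. CESA3 (LOC_Os07g24190, chromosome 7, 13741284 to 13747256) had 6.16 FPKM in leaf blade (5.77 to 6.54), 118 in node (116 to 120) and 111 in stem (109 to 112). CESA1 (LOC_Os05g08370, chromosome 5, 4565177 to 4571461) had 4.17 FPKM in leaf blade (3.88 to 4.46), 83.6 in node (82.3 to 84.9) and 65.4 in stem (64.3 to 66.5). CESA8 (LOC_Os07g10770, chromosome 7, 5852711 to 5858718) had 1.47 FPKM in leaf blade (1.30 to 1.65), 82.3 in node (81.0 to 83.6) and 82.8 in stem (81.5 to 84.0). Leaf blade was far below both other tissues in each of these genes, with no overlap of intervals, and CESA8 was the single member whose node and stem intervals overlapped. The node value of CESA3 was 19.2 times that of leaf blade (17.8 to 20.8 from the interval bounds), that of CESA1 20.1 times (18.4 to 21.9) and that of CESA8 55.9 times (49.2 to 64.4). The stem value was 18.0 times that of leaf blade in CESA3, 15.7 times in CESA1 and 56.2 times in CESA8. CESA8 thus stood further from its leaf blade level than CESA1 and CESA3 did. Its ratio to CESA1 was 0.353 in leaf blade, 0.984 in the node and 1.27 in stem. CESA3 kept a more even ratio to CESA1, at 1.48, 1.41 and 1.69.

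CESA6, CESA5 and CESA2, the other primary wall genes, were all higher in node than in stem; they are set apart here after their values were seen. CESA6 (LOC_Os07g14850, chromosome 7, 8496189 to 8501906) had 1.40 FPKM in leaf blade (1.23 to 1.56), 41.6 in node (40.6 to 42.5) and 8.49 in stem (8.09 to 8.89). CESA5 (LOC_Os03g62090, chromosome 3, 35177572 to 35183423) had 0.536 FPKM in leaf blade (0.435 to 0.636), 21.4 in node (20.8 to 22.1) and 3.76 in stem (3.51 to 4.02). CESA2 (LOC_Os03g59340, chromosome 3, 33780013 to 33786467) had 1.19 FPKM in leaf blade (1.04 to 1.34), 13.4 in node (12.9 to 13.9) and 6.09 in stem (5.76 to 6.41). The intervals of all 3 tissues were apart in each gene, with node the highest and leaf blade the lowest. The locus of CESA2 overlapped a polygalacturonase row, LOC_Os03g59330, which was listed at 0 in all 3 libraries. Node exceeded stem 5.69-fold in CESA5 (5.17 to 6.30), 4.89-fold in CESA6 (4.57 to 5.25) and 2.20-fold in CESA2 (2.01 to 2.41). Over the same pair of tissues CESA1 differed 1.28-fold (1.24 to 1.32) and CESA3 1.07-fold (1.03 to 1.10), and no spread between plants was measured against which to set such small differences. Stem exceeded leaf blade 6.09-fold in CESA6 (5.18 to 7.25), 7.03-fold in CESA5 (5.51 to 9.25) and 5.13-fold in CESA2 (4.31 to 6.17). CESA2, CESA5 and CESA6 together held 20.5% of the summed CESA level in leaf blade, 18.4% in the node and 5.17% in stem.

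The secondary wall genes CESA4, CESA7 and CESA9 were scarcely detected in leaf blade and plain in the node and stem. CESA4 (LOC_Os01g54620, chromosome 1, 31422946 to 31428688) had 0.205 FPKM in leaf blade (0.135 to 0.276), 21.1 in node (20.4 to 21.8) and 18.0 in stem (17.4 to 18.7). CESA7 (LOC_Os10g32980, chromosome 10, 17261952 to 17266613) had 0.0411 FPKM in leaf blade (0.0100 to 0.0721), 18.5 in node (17.8 to 19.1) and 25.3 in stem (24.6 to 26.1). CESA9 (LOC_Os09g25490, chromosome 9, 15281268 to 15285910) had 0.0566 FPKM in leaf blade (0.0208 to 0.0924), 14.3 in node (13.8 to 14.9) and 34.3 in stem (32.3 to 36.4). Node was the highest tissue for CESA4 and stem for CESA7, by small margins, while the stem value of CESA9 is at odds with its fragments and is taken up next. The leaf blade values came from 34 implied fragments for CESA4, 7 for CESA7 and 10 for CESA9, so the ratios to leaf blade are wide. The node value was 103 times the leaf blade value for CESA4 (73.9 to 162 from the bounds), 450 times for CESA7 (247 to 1909) and 253 times for CESA9 (149 to 717). Stem exceeded leaf blade 87.8-fold in CESA4 (63.1 to 138) and 617-fold in CESA7 (341 to 2602). Between the tissues rich in these genes, node exceeded stem 1.17-fold in CESA4 (1.09 to 1.26) and stem exceeded node 1.37-fold in CESA7 (1.28 to 1.47).

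FPKM ratios followed the ratios of implied fragments in 8 genes and parted from them in CESA9. For the 8 genes other than CESA9, the FPKM ratio divided by the fragment ratio, each fragment number taken as a share of its library, lay between 0.965 and 1.13 in all 24 comparisons. For CESA9 this quotient was 1.04 in node versus leaf blade, but 5.61 in stem versus leaf blade and 0.185 for node versus stem. CESA9 had 10 implied fragments in leaf blade, 2447 in the node and 1171 in stem. By FPKM stem exceeded node 2.40-fold (2.17 to 2.64), whereas by fragment share node exceeded stem 2.26-fold, so the order of node and stem in CESA9 is uncertain. Stem stayed above leaf blade by both measures, 607-fold by FPKM and 108-fold by fragments.

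The transcript length implied by FPKM and fragments together was 4431 bases for CESA9 in leaf blade, 4273 in the node and 790 in stem. Among 18455 genes compared and above 0 in all 3 tissues, the longest implied length was 1.27 times the shortest at the median, and 489 genes (2.65%) reached the 5.61 of CESA9. The other CESA genes lay between 1.04 and 1.13. The fragment number of CESA9 in stem comes from its deposited interval, 5.84% either side against 2.95% for CESA7 in stem. It lay 0.186 from a whole number where rounding of the files allows 0.120, and it was the 1 value outside its allowance among the 13 whose allowance was under 0.5; the other 14 were too coarse to tell. A shorter transcript in the length model and an interval widened for another reason would both lower the implied length. Only the widened interval would do so through a lower inferred number of fragments. These cannot be told apart here. With one length per gene, the median of the 3 libraries, the stem level of CESA9 would be 6.35 FPKM, against 34.3 as deposited.

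**Figure D2:**
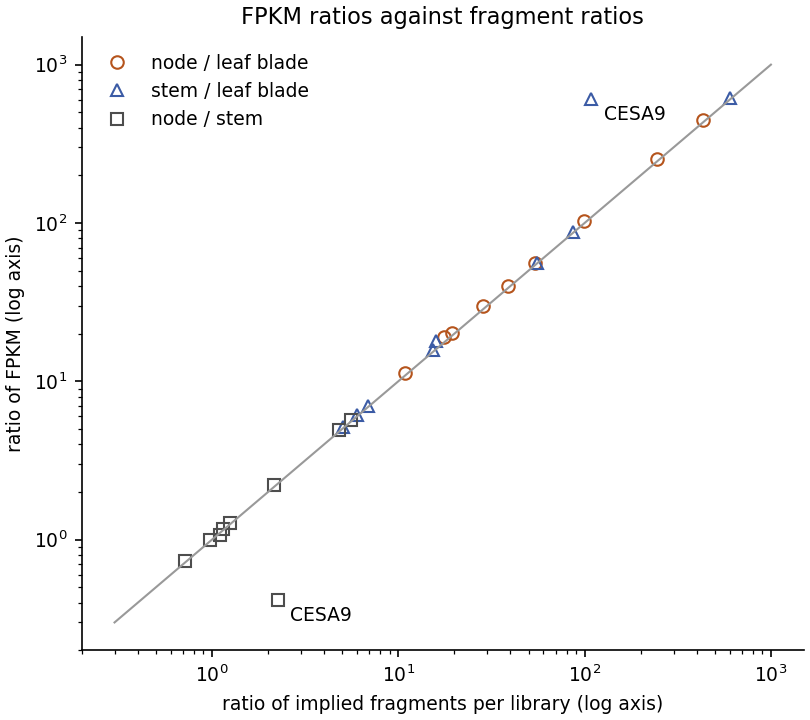
Ratio of FPKM (vertical) against ratio of implied fragments as shares of their libraries (horizontal), both log axes, for the 9 CESA genes in 3 comparisons; the line marks equal ratios. All points lie along the line except CESA9 in both comparisons with stem, at 607 against 108 in stem over leaf blade and 0.417 against 2.26 in node over stem.

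In the comparison across all genes, a gene was called at 4-fold or more on the log2(FPKM + 1) scale, a scale that understates differences of genes with low values. The comparisons share libraries, so they are not independent of each other. In node versus leaf blade 9 of 9 CESA genes were called higher and 0 lower, where 12.3% of the 20097 genes compared were higher and 7.29% lower. Their log2 differences ran from 2.72 in CESA2 to 5.07 in CESA8, with a median of 4.06 against 0.13 over all genes. In stem versus leaf blade 6 of 9 were called higher and 0 lower, where the background was 6.43% higher and 6.52% lower, with a median of 3.97 against -0.02. The members not called were all of the primary wall, CESA6 at 1.99, just under the threshold of 2, CESA2 at 1.70 and CESA5 at 1.63. In node versus stem 2 of 9 were called higher, where the background was 6.82%. These were CESA5 at 2.24 and CESA6 at 2.16, both just over the threshold, while CESA2 was at 1.02. None of the 9 was called lower in node than in stem, where 2.3% of all genes were.

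**Figure D3:**
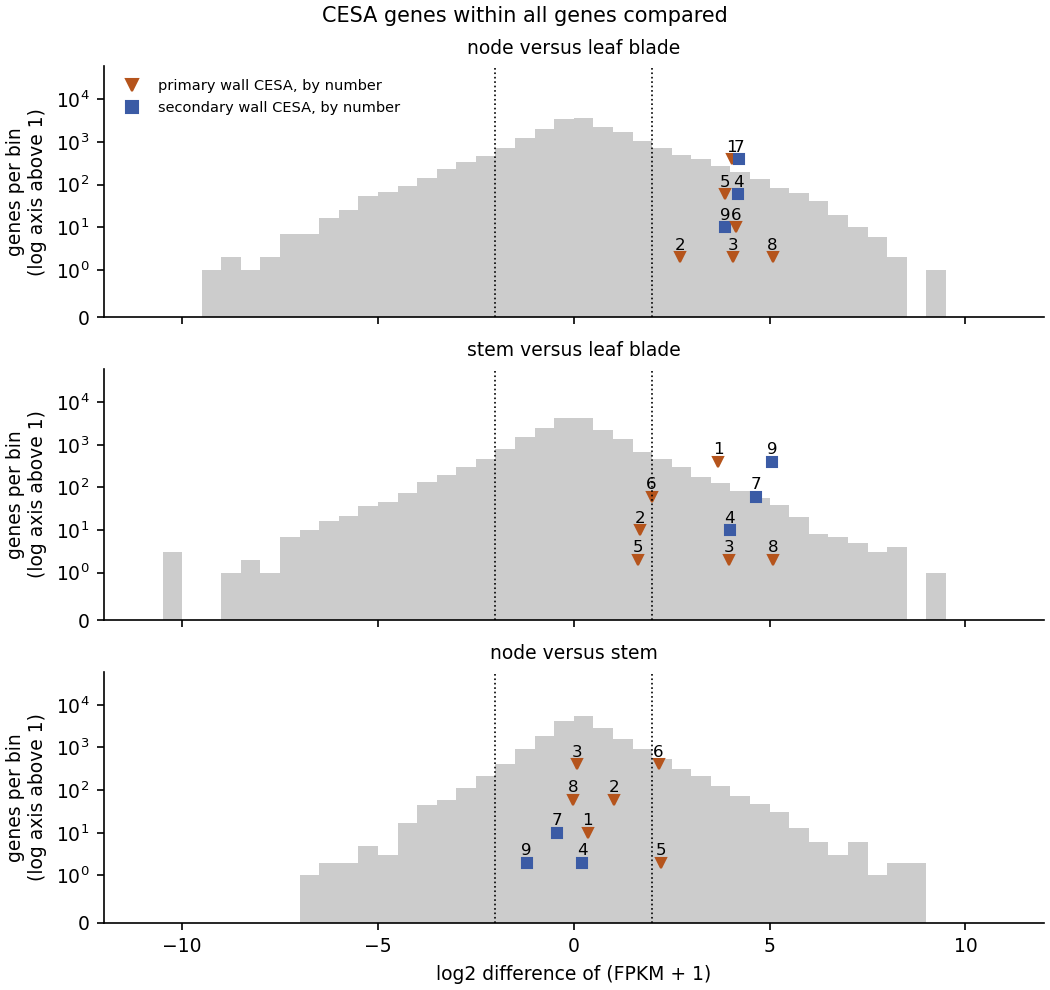
Number of genes per bin of log2 difference (gray bars, vertical axis logarithmic above 1) in each comparison, with the 9 CESA genes marked by number; the height of a mark carries no value and dotted lines mark 4-fold. All 9 genes lie right of the upper line in node versus leaf blade, 6 in stem versus leaf blade, and 2 for node versus stem.

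The order of the members differed little at the top and more below it. In leaf blade it ran CESA3, CESA1, CESA8, CESA6, CESA2, CESA5, CESA4, CESA9, CESA7, where the intervals of CESA8 and CESA6, of CESA6 and CESA2, and of CESA9 and CESA7 overlapped. In node it ran CESA3, CESA1, CESA8, CESA6, CESA5, CESA4, CESA7, CESA9, CESA2, with overlap between CESA1 and CESA8, between CESA5 and CESA4, and between CESA9 and CESA2. In stem it ran CESA3, CESA8, CESA1, CESA9, CESA7, CESA4, CESA6, CESA2, CESA5 with no overlap between neighbours. All secondary wall genes thus stood above CESA6, CESA2 and CESA5 in stem and below CESA6 in node. With one length per gene, CESA9 at 6.35 FPKM would fall below the 8.49 of CESA6 in stem.

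The secondary wall set made up a small part of the CESA transcripts in each tissue. Its summed level was 0.303 FPKM in leaf blade, 53.9 in the node and 77.7 in stem, against 14.9, 360.3 and 277 for the primary wall set. The stem sum of the secondary wall set includes CESA9 at 34.3 FPKM, which would be 6.35 with one length per gene. The order of node and stem in this sum is therefore uncertain. Its share was 1.99% in leaf blade (1.01 to 3.13 from the interval bounds), 13.0% in node (12.4 to 13.6) and 21.9% in stem (20.8 to 23.0). The stem share depends on CESA9. It was 15.4% with one length per gene and 13.5% with CESA9 left out, against 13.0% and 9.90% in node under the same settings. The share in stem remained above that in node in each case, by a smaller margin. This concerns the share and not the summed level. Within the set, CESA7 stood at 0.875 of CESA4 in the node and 1.40 in stem. CESA9 stood at 0.679 of CESA4 in node, and in stem at 1.90 as deposited or 0.352 with one length per gene. In leaf blade CESA4 led, with CESA7 at 0.200 and CESA9 at 0.275 of it, on the few fragments given above.

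**Figure D4:**
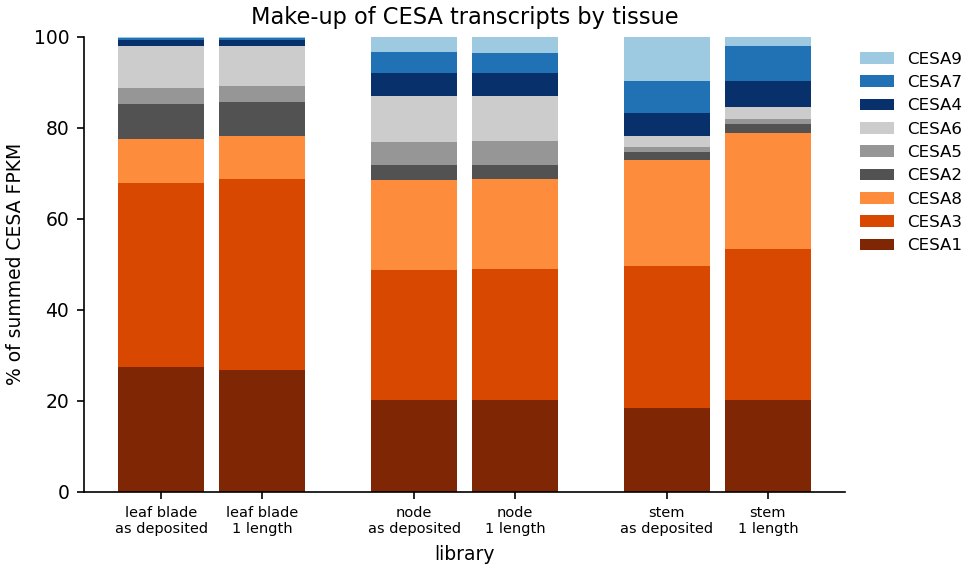
Share of the summed CESA level held by each gene, in % of FPKM, for each library as deposited and recomputed with one transcript length per gene; blue shades are the secondary wall genes and gray shades CESA2, CESA5 and CESA6. The secondary wall share in stem is 21.9% as deposited and 15.4% with one length, while the bars of node and leaf blade hardly differ between the methods.

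Outside the 9 members, the files describe 2 further loci as numbered CESA genes, both at low levels. CESA11 (LOC_Os06g39970) had 1.80 FPKM in leaf blade (1.52 to 2.09), 0.0348 in the node and 0.0237 in stem, so it was highest in leaf blade, unlike the 9 members. CESA10 (LOC_Os12g29300) was listed at 0 in leaf blade and had 0.679 FPKM in the node and 0.338 in stem, so leaf blade was its lowest tissue, as it was for the 9.

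Genes that act beside the CESA proteins were described by lists, each beside the medians of all genes, which were 0.13 in node versus leaf blade, -0.02 in stem versus leaf blade and 0.16 for node versus stem. The list of cellulose assembly had 4 of 6 members called higher in node versus leaf blade (median 2.30 on the log2 scale), 1 of 6 in stem versus leaf blade (median 0.59) and 2 of 6 for node over stem (median 0.95). None was lower. Here and in the lists that follow, the shares of all genes called higher were 12.3%, 6.43% and 6.82% in these comparisons, and lists this short give coarse shares. BC1, a COBRA-like protein of secondary walls that rice needs for stiff culms, had 0.0759 FPKM in leaf blade, 5.42 in the node and 2.28 in stem. CTL1, a chitinase-like protein needed for cellulose formation, had 7.43, 62.0 and 46.5 FPKM. GLU1, a membrane endoglucanase of the KORRIGAN type, had 3.93 FPKM in leaf blade, 22.8 in the node and 2.82 in stem, so node stood apart from both other tissues. By fragments, node exceeded stem 5.94-fold in GLU1. The kinesin gene BC12 was among the 4 called, with a node level of 29.5 FPKM against 5.09 in leaf blade, but its fragment share differed 1.19-fold, so the size of its difference is uncertain. It was also called in node over stem, with GLU1, where its fragment shares stood at 0.952. DRP2B had log2 differences of 1.44 in node and 0.87 in stem versus leaf blade. Its fragment shares stood at 0.766 and 0.764 of leaf blade, and its implied lengths differed 3.66-fold between tissues. The median 2.30 rests on GLU1 and BC12, and the median 0.59 on BC12 and DRP2B, so these 2 medians are uncertain.

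The secondary wall regulators, NAC and MYB factors that switch on wall genes, had 3 of 5 members called higher in node versus leaf blade (median 2.22), 1 of 5 in stem versus leaf blade (median 1.11) and 0 of 5 for node over stem (median 1.01), with none lower, beside 12.3%, 6.43% and 6.82% of all genes higher. SWN1 had 1.31 FPKM in leaf blade, 10.4 in the node and 4.65 in stem, and SWN2 had 1.39, 10.1 and 4.15. MYB61 had 0.315 FPKM in leaf blade, 7.11 in the node and 8.74 in stem, and it was the regulator called in stem. MYB46 was listed at 0 in leaf blade, with 2.32 FPKM in the node and 0.152 in stem, and MYB103 had 0.0259, 2.33 and 1.02. All 5 were lowest in leaf blade, as the CESA genes were, and 4 of the 5 were higher in node than in stem.

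UDP-glucose, the substrate of CESA proteins, comes from sucrose synthases and UDP-glucose pyrophosphorylases. Of 8 genes listed, 5 reached 1 FPKM in some tissue. By 4-fold or more 1 of these was higher in node versus leaf blade (median 1.28), 2 in stem versus leaf blade (median 0.61) and 1 for node over stem (median -0.07), beside the same 12.3%, 6.43% and 6.82% of all genes, and none was lower. SUS1, a sucrose synthase, had 2.63 FPKM in leaf blade, 499 in the node and 110 in stem, a log2 difference of 7.11 between node and leaf blade. SUS2 had 116, 284 and 482 FPKM, and its fragment shares put node above stem 1.35-fold, so its order in those tissues is uncertain. It was called higher in stem versus leaf blade with SUS1, and its fragment shares there differed 1.74-fold. UGP1, a pyrophosphorylase, was even, at 138, 178 and 207 FPKM.

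Lignin enzymes make the polymer that stiffens secondary walls. None of 5 was called higher in node versus leaf blade (median 0.60; 12.3% of all genes). In stem versus leaf blade 2 of 5 were higher (median 1.81, 6.43% of all genes). In node versus stem 1 of 5 was lower (median -0.95, 2.3% of all genes). The medians 0.60 and 1.81 are the values of 4CL3, whose implied lengths differed 4.11-fold between tissues. Its fragment shares put node 6.14-fold and stem 14.6-fold above leaf blade, so these 2 medians are uncertain. CAD2, the alcohol dehydrogenase of lignin synthesis, had 27.5 FPKM in leaf blade, 70.6 in the node and 131 in stem, and the methyltransferase COMT1 had 142, 305 and 591. Stem was the highest tissue for both, and node was between. The gene called lower in node was CAld5H1, with 1.26 FPKM in the node and 8.08 in stem. Its implied lengths differed 2.95-fold between tissues, and its fragment shares put node at 0.146 of stem.

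COBRA proteins by description had 5 of 10 members called higher in node versus leaf blade (median 1.93), 2 of 10 in stem versus leaf blade (median 0.60) and 2 of 10 for node over stem (median 1.38), with none lower, where 12.3%, 6.43% and 6.82% of all genes were higher. BC1 belongs to this list too. The highest was LOC_Os05g32110, with 6.59 FPKM in leaf blade, 166 in the node and 151 in stem. Cellulose synthase-like genes, relatives of CESA that make other wall polysaccharides, had 8 of 20 members higher in node than in leaf blade (median 1.47) and 5 of 20 higher in node than in stem (median 1.13), where 12.3% and 6.82% of all genes were. In stem versus leaf blade 2 of 20 were higher and 2 lower (median 0.44), near the 6.43% and 6.52% of all genes. CSLF6, which makes mixed-linkage glucan in grasses, had 0.818 FPKM in leaf blade, 41.6 in the node and 12.0 in stem. CSLA1 had 0.192 FPKM in leaf blade, 81.0 in the node and 1.75 in stem. The 9 CESA genes had higher medians than each of these lists in both comparisons with leaf blade, a description of chosen lists and not a test.

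**Figure D5:**
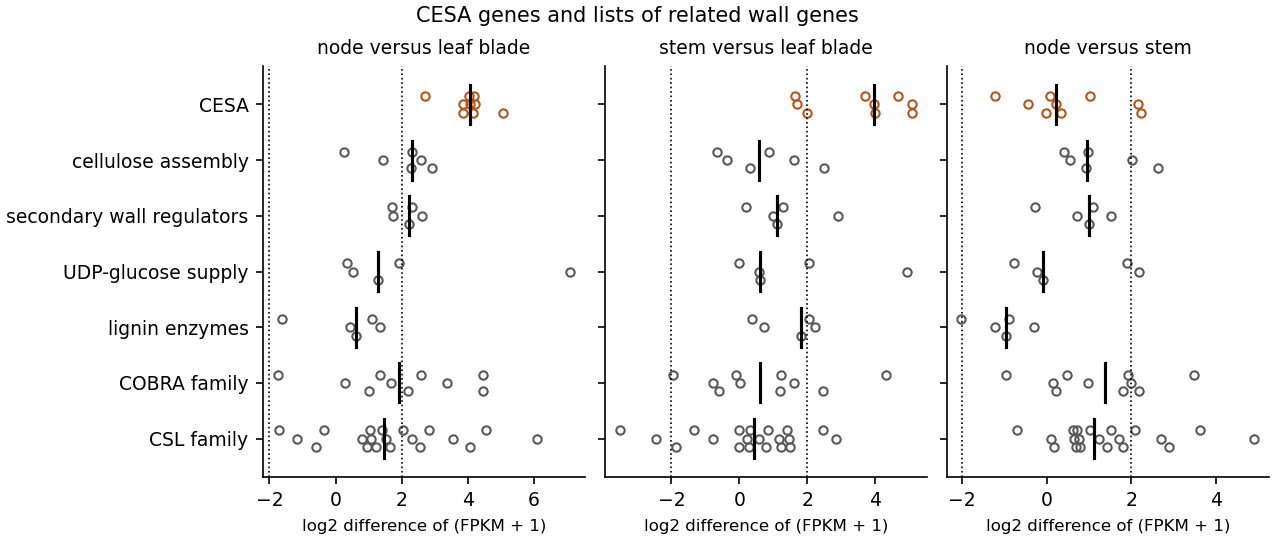
Log2 difference of (FPKM + 1) for the CESA genes and for lists of related wall genes in 3 comparisons; each circle is a gene that reached 1 FPKM, its vertical offset carries no value, black bars are medians and dotted lines mark 4-fold. The CESA median is 4.06 in node versus leaf blade, 3.97 in stem versus leaf blade and 0.22 for node versus stem.

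Genes closest to the mean of each wall set were sought by the share of FPKM, summed over the tissues, that fell in each tissue. Members spread widely around these means. The node share ran from 49.4% in CESA8 to 83.3% in CESA5 among primary wall genes. Among secondary wall genes it ran from 29.4% in CESA9 to 53.6% in CESA4. A gene close to a mean can thus be unlike single members of the set. Shares over 3 libraries define a coarse pattern that unrelated genes can meet. The mean shares of the primary wall set were 2.79% in leaf blade, 63.9% in the node and 33.4% in stem, and 18 of 9422 described genes lay within 2 percentage points of each. The closest was LOC_Os01g63480, a transferase family protein, within 0.577 points. Next were LOC_Os01g62920, a homeodomain protein, LOC_Os08g29760, a membrane protein, LOC_Os04g46060, described as WRKY36, and LOC_Os02g33780, a serine-aspartate repeat protein. The mean shares of the secondary wall set were 0.244%, 41.7% and 58.0%, and 8 genes lay within 2 points. The closest was LOC_Os03g01720, a protein binding protein, within 0.140 points, followed by LOC_Os03g25460, described as OsRCI2-4, the peroxidase LOC_Os06g35480, the glycosylase LOC_Os08g38170 and the peroxidase LOC_Os05g04380. The implied lengths of LOC_Os01g62920, LOC_Os04g46060 and LOC_Os03g01720 differed 6.06-fold, 3.79-fold and 2.73-fold between tissues, so their shares are uncertain in the way CESA9 is. With CESA9 left out of the mean, 0 of these 5 stayed among the 5 closest.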

How the data were processed

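The authors deposited, per the file headers, an FPKM value per gene with lower and upper bounds, a description and a locus, for 1 library per tissue. The submitters' processing notes name TopHat. The quantification program, genome build, annotation release and strand are not given in the sources used here. Fragments n were inferred from upper bound = FPKM + 2 × FPKM / √n. Simulated data were built with this same formula, so they checked the arithmetic only and cannot show that the deposited intervals follow it. For the 12 member values where rounding left a tolerance under 0.1, n was whole within it. No count test was run. Of genes with a single identifier found once per library, 20097 reached 1 FPKM in some tissue and were compared by log2 ratios of (FPKM + 1). Levels with one length per gene divide n by the median of the 3 implied lengths. Ratio ranges set one lower bound against the other upper bound. Locus starts were taken to count from 0 and 1 was added. This is inferred, since end minus start equalled the length in a RefSeq gene table of another assembly for 4 of the 9 genes, and end minus start plus 1 did for 1. RefSeq listed all 9 symbols on the same chromosomes. Exons and untranslated regions, and sequences, were not analysed here. The members and lists were chosen with earlier results of these data known. All members were named, with at most 4 genes of a list per comparison, and the 5 described genes at 10 FPKM or more whose tissue shares lay closest to a wall set's mean. Python 3.11.15, pandas 2.3.3 and NumPy 2.4.6 were used. Alternatives were pseudocounts of 0.1 and 5, no filter or a filter at 5 FPKM, rescaling without the 50 most abundant genes, implied fragments in place of FPKM, and a 2-fold threshold.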

Additional observations from a re-analysis of the deposited data

How the results depend on the processing

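The 4-fold counts were recomputed under 7 alternatives. All 9 CESA genes stayed higher in node than in leaf blade, except that CESA2 and CESA9 were not called with a pseudocount of 5 (7 called, background 5.37%). The filter changes, the 2-fold threshold and the pseudocount of 0.1 could not have lowered this count. Beside it the background rose from 12.3% to 26.5% with a 2-fold threshold, 19.8% with a pseudocount of 0.1 and 20.2% by implied fragments. In stem versus leaf blade the count was 6 or 9. It was 9 with a pseudocount of 0.1 (background 12%), a 2-fold threshold (16.7%) or implied fragments (14.2%), and 6 with a pseudocount of 5 (2.9%). In node versus stem the count higher was 0 with a pseudocount of 5 (background 2.4%). With a 2-fold threshold 3 were higher, CESA2, CESA5 and CESA6 (19.4%), and 1, CESA9, was lower (8.99%). The count higher stayed 2 of 9 with a pseudocount of 0.1 (13.3%) and by implied fragments (14.5%), while the background rose from 6.82%. The secondary wall share moved beyond its interval in stem, to 15.4% with one length per gene, and, with CESA9 left out, an alternative chosen after the data were seen, to 13.5% in stem and 9.90% in node. Of 108 recomputed log2 differences 107 kept their sign. The exception was CESA9 in node versus stem, at -1.20 by FPKM and 1.17 by implied fragments. Differences with another pseudocount could not change sign. Rescaling shifted node versus leaf blade by only -0.116, stem versus leaf blade by -0.0506 and node versus stem by -0.0651. The count of kept signs thus says little beyond the implied fragments. Rescaling moved the median of all genes in node versus leaf blade from 0.13 to 0.03. No description contradicted its symbol, so no member was left out for that. No paired analysis was possible because each tissue has 1 library. Depth limits the leaf blade values of CESA4, CESA7 and CESA9.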
